A study of Mus musculus with 16 samples.

Results

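Treg from the visceral fat of mice whose Treg lacked Hpgd were compared with conventional T cells (Tconv) from the fat of mice of the same genotype. The sample titles gave 4 libraries as Treg KO and 5 as Tconv KO, which are 9 of the 16 libraries of the series. The other 7 are 3 Treg WT and 4 Tconv WT libraries, used here for a shared estimate of the spread and as a second comparison of the same kind. Of 19540 genes in the deposited table, 14319 reached a value of 10 in at least 3 of the 16 libraries and were tested.

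All mice were of strain C57BL/6JRcc and 12 weeks old, per the labels. The line is labelled "Hpgd fl" with "Foxp3-YFP-Cre", so the recombinase is driven by the Foxp3 locus and acts in Foxp3-expressing cells. The Tconv KO libraries thus come from animals in which Hpgd was deleted in Treg, and the Tconv themselves were not targeted. The 16 samples carry 1 and the same line label, and only the titles tell KO from WT. The sources used here give neither the deleted exon, nor the sex of the mice, nor the sorting markers. The series description counts 5 deleted and 4 WT animals without tying libraries to animals, so a p-value here measures how these libraries vary, which may be technical variation.

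Regulatory T cells are CD4 T cells that depend on the transcription factor Foxp3 and restrain other immune cells. In visceral adipose tissue of lean mice they form a distinct population, known for the IL-33 receptor ST2, the nuclear receptor PPARγ and the type 2 transcription factor Gata3, and for effects on inflammation and insulin sensitivity. Conventional CD4 T cells of the same tissue are mainly effector and memory cells. Hpgd encodes hydroxyprostaglandin dehydrogenase, which oxidises prostaglandin E2 to 15-keto prostaglandin E2. The comparison asks which genes distinguish VAT Treg from the Tconv beside them once Treg lack this enzyme, and whether the distinction is the one seen in WT mice.

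Values are read counts per gene that the authors scaled by a library size factor and raised by 1, so an unread gene has a value of 1. The 4 Treg KO libraries held 4.77 M to 8.74 M reads, and 4 of the Tconv KO libraries 5.90 M to 9.26 M. Tconv KO 3 held 56.7 M reads. Between 14411 and 16041 genes had reads in a KO library, and the value of 3 reads, used as a floor, ran from 1.38 in Tconv KO 3 to 5.61 in Treg KO 2. In a principal component analysis of the 9 KO libraries, the first component carried 28.5% of the variance and placed all Treg at 58.6 to 101 and all Tconv at −69.0 to −46.0. The second component, with 15.2%, placed Tconv KO 3 at −133 and the other 8 libraries between −2.64 and 36.5. Tconv KO 3 therefore stood apart from its group, and its values are given beside the results they touch.

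Hpgd, the targeted gene (chromosome 8, 56294585 to 56321043, mm10), was at or under the floor of 3 reads in 8 of the 9 KO libraries. It read 3.41, 2.54, 2.42 and 1.00 in Treg KO 1 to 4, from 2, 1, 1 and 0 reads. In Tconv KO it had reads in Tconv KO 3 alone, at 6.20 from 41 reads, above the floor of 1.38 in that library. The groups overlapped, and the exact 2-sided permutation test of the log2 difference of 0.31 gave p = 0.492. In the WT libraries used as a second comparison, Hpgd read 73.1 and 56.0 in Treg WT 1 and 2 but 4.31, from 3 reads, in the library labelled Treg WT 3, and it had no reads in Tconv WT. The library labelled Treg WT 3 thus stood at its floor, against its label, and the numbers of genes that passed in WT and for the difference between KO and WT are given with and without it. Gene-level values hold all exons, so they bear on the deletion only as far as the loss of an exon lowers the whole transcript.

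Foxp3, the transcription factor that defines Treg (chromosome X, 7573644 to 7595245), checked the sort. It read 279, 546, 453 and 335 in the Treg KO libraries, against 1.00, 1.00, 1.89, 4.99 and 1.00 in the Tconv KO libraries. The lowest Treg value lay far above the highest Tconv value, and the log2 difference was 7.19 (SE 0.84, limma adjusted p = 1.64e-05). The exact 2-sided permutation test gave p = 0.0159, the smallest that 126 splits allow. Foxp3 exons overlap those of Ccdc22 and Ppp1r3f, whose reads cannot be told apart without strand. Both populations carried the T cell genes they share. The T cell receptor subunit Cd3e read 1641 ± 166 in Treg KO and 2095 ± 345 in Tconv KO, and the coreceptor Cd4 read 5332 ± 1003 in Treg KO and 6526 ± 1044 in Tconv KO (SD, n = 4 and 5). Neither passed the test, although Cd4 did under quantile scaling (limma adjusted p = 0.0254).

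Between Treg KO and Tconv KO, 975 of 14319 genes passed at a limma adjusted p under 0.05, which is 6.81% of the genes tested. Of these, 595 were higher in Treg KO (4.16%) and 380 were lower (2.65%). Without Treg KO 3 the lower genes numbered 241, and with quality weights per library 596. At least a 2-fold change was seen for 788, and 108 rose and 42 fell by at least 16-fold. The median log2 difference was 2.01 over the genes that rose, −1.60 over those that fell and 0.04 over all genes tested. For 845 of the 975 genes the libraries of the groups did not overlap. Over all genes tested, 10.7% did not overlap, 6.0% with Treg above and 4.66% with Treg below. For 24 of the genes that rose no Tconv KO library had a read, and for 11 of those that fell no Treg KO library had one. Genes with more reads passed more often. With the genes split by mean level into 4 groups of like size, the share was 1.59% in the lowest group and 16.1% in the highest. In bulk libraries, fewer cells that express a gene and less RNA per cell cannot be told apart.

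The highest difference belonged to Cyp4f18, a cytochrome P450 known in mouse neutrophils for inactivating leukotriene B4 (chromosome 8, 71988482 to 72009626). It read 14107, 2425, 6856 and 10743 in the Treg KO libraries, against 1.00, 8.79, 4.42, 23.3 and 1.00 in the Tconv KO libraries. Every Treg library lay above every Tconv library, with a log2 difference of 10.32 (SE 0.69, limma adjusted p = 1.98e-08). Cyp4f18 exons overlap those of Zfp961, so its level is uncertain without strand. Slco2b1, an organic anion transporter (chromosome 7, 99657804 to 99711340), read 1514, 738, 2201 and 1997 in Treg KO and had no read in any Tconv KO library. With the Tconv libraries set at the floor of 3 reads each, it was at least 491-fold higher in Treg KO (limma adjusted p = 6.06e-08). Its absence from Tconv included Tconv KO 3, where 1 read is worth a value of 0.127.

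Several of the next genes encode receptors, chemokines and antigen-presenting proteins. Ccr1, a receptor for CCL3 and CCL5 (chromosome 9, 123962124 to 123968692), read 1014, 445, 761 and 1562 in Treg KO, against 1.00, 1.00, 2.65, 1.80 and 1.00 in Tconv KO (log2 difference 8.47, SE 0.90). Cxcl2, a chemokine that attracts neutrophils (chromosome 5, 90903871 to 90905938), read 4724, 2942, 5685 and 4830 in Treg KO, against 5.86, 13.5, 548, 68.8 and 1.00 in Tconv KO (7.54, SE 1.40). Ccr1 was close to the floor in every Tconv library, while Cxcl2 was raised in Tconv KO 3 over the other Tconv. The class II beta chain H2-Eb1 (chromosome 17, 34305867 to 34316674) read 2021, 473, 1733 and 1918 in Treg KO, against 16.8, 1.00, 1.00, 83.2 and 7.22 in Tconv KO (7.27, SE 0.91). Treg KO 2 read lowest of its group, and still above every Tconv library. The limma adjusted p was 6.13e-06 for Ccr1, 0.00167 for Cxcl2 and 3.29e-05 for H2-Eb1.

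A further set is better known from other tissues. Ky, a muscle protein with a transglutaminase-like domain, read 287, 356, 369 and 432 in Treg KO and had no read in Tconv KO, at least 110-fold higher. Pcdh19, a protocadherin of neurons, was at least 90.8-fold higher (298 ± 107 in Treg KO), and Wwtr1, the Hippo pathway coactivator TAZ, at least 82.5-fold higher (271 ± 222 in Treg KO), each with no read in any Tconv KO library. Treg KO 4 at 600 raised the mean of Wwtr1, since the other Treg libraries read 138 to 206. Jup, the junction protein plakoglobin, averaged 641 ± 224 in Treg KO and 5.20 ± 3.09 in Tconv KO, with a log2 difference of 6.82. Jcad, a junction protein of endothelium, averaged 376 ± 65.2 in Treg KO and 1.20 ± 0.387 in Tconv KO, and the potassium channel Kcna4 409 ± 88.9 in Treg KO and 4.28 ± 6.47 in Tconv KO. Dgat2, an enzyme of triglyceride synthesis, averaged 1241 ± 422 in Treg KO and 19.7 ± 16.3 in Tconv KO (6.51). Wipf3, an actin regulator whose exons overlap Scrn1, averaged 1017 ± 446 in Treg KO and 18.3 ± 25.3 in Tconv KO (6.70). Frmd5 varied most within Treg among these genes, at 2652, 545, 1661 and 128, against 2.22, 7.23, 2.77, 2.60 and 58.7 in Tconv KO (6.67). All of these genes passed with no overlap between groups, at limma adjusted p from 3.97e-07 for Ky to 0.000658 for Wwtr1.

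**Figure D1:**
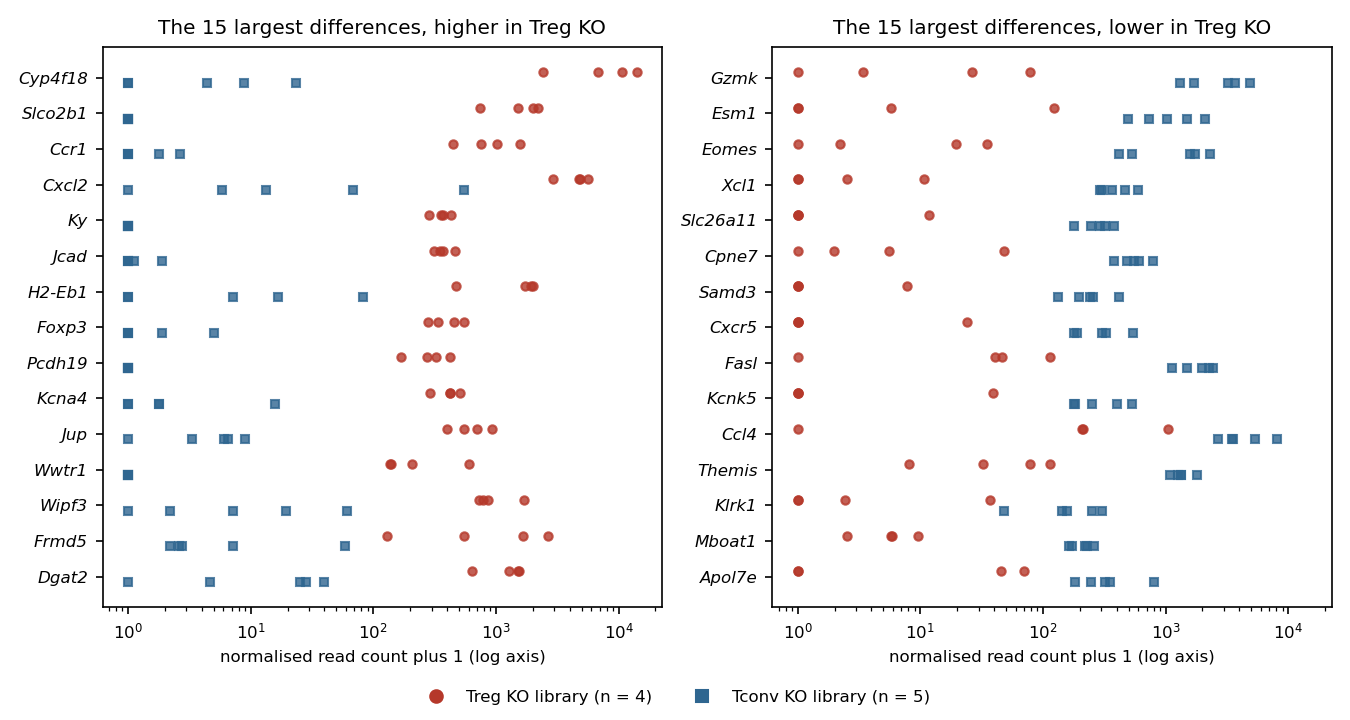
Deposited values, on a log axis, of the genes with the highest (left panel) and lowest (right panel) log2 differences between Treg KO and Tconv KO, with 1 point per library. Each gene was chosen for groups that do not overlap, and Cyp4f18 lies between 2425 and 14107 in Treg KO and between 1.00 and 23.3 in Tconv KO.

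Of the 15 genes with the lowest differences, 6 are on the list of Th1 and cytotoxic genes. Gzmk, the protease granzyme K (chromosome 13, 113171608 to 113225908), read 3.41, 77.8, 1.00 and 26.3 in Treg KO, against 1313, 4881, 1715, 3668 and 3198 in Tconv KO (log2 difference −7.82, SE 0.89, limma adjusted p = 1.3e-05). Esm1, a secreted proteoglycan encoded on the opposite strand inside the Gzmk locus, came next, at 5.82, 122, 1.00 and 1.00 in Treg KO, against 738, 1500.1, 497, 2087 and 1035 in Tconv KO (−7.09). Eomes, a T-box transcription factor of cytotoxic and memory cells (chromosome 9, 118478212 to 118486132), read 2.21, 34.8, 19.4 and 1.00 in Treg KO, against 531, 1572, 419, 2288 and 1731 in Tconv KO (−7.01, SE 0.93). Xcl1, a chemokine that attracts cross-presenting dendritic cells, read 10.6, 2.54, 1.00 and 1.00 in Treg KO, against 363, 305, 294, 597 and 469 in Tconv KO (−6.77, SE 0.64). In each of these genes the Treg libraries lay at or near the floor or well under the lowest Tconv library. Treg KO 2 was the highest Treg library for Gzmk and Eomes. It was also the highest in 149 of the 369 lower genes that had a single highest Treg library (40.4%), and its part in them was not tested. The share over all genes tested was not taken, so this count does not set the lower genes apart from other genes.

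Fasl, the death ligand of activated T cells, read 46.8, 113, 1.00 and 40.9 in Treg KO, against 1504, 2458, 1128, 2278 and 1972 in Tconv KO (−6.11, SE 0.72). Themis, a regulator of T cell receptor signalling known from thymocytes, read 32.3, 115, 8.08 and 77.9 in Treg KO, against 1806, 1336, 1078, 1324 and 1271 in Tconv KO (−5.04, SE 0.51, limma adjusted p = 4.49e-06). Its Tconv libraries varied little, with an SD of 268 around 1363. Cxcr5, the homing receptor for B cell follicles, read 24.0 in Treg KO 2 and 1.00 in the other Treg KO libraries, against 327, 180, 190, 302 and 546 in Tconv KO (−6.24). Its exons overlap Bcl9l. Ccl4, an inflammatory chemokine, differed less cleanly, at 1041, 210, 1.00 and 214 in Treg KO, against 3509, 5348, 2672, 8038 and 3550 in Tconv KO (−5.44), and lost its call by voom (limma adjusted p = 0.0558). The remaining genes of this set were the anion transporter Slc26a11 (−6.45), Cpne7 of the copine family (−6.37), Samd3 (−6.33), the potassium channel Kcnk5 (−6.06), the activating receptor Klrk1, known as NKG2D (−5.01), the lysophospholipid acyltransferase Mboat1 (−5.00) and Apol7e (−4.96).

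The promoters of these leading genes were searched for 4 short motifs, each on both strands, in the 250 bases before and 50 bases after each RefSeq start site. RefSeq promoters (GRCm38.p6) were found for 13 of the 15 highest and 11 of the 15 lowest genes. The T-box motif GGTGTGA was found in 1 of the 13, Cyp4f18, and in 3 of the 11, Gzmk, Xcl1 and Samd3. It occurs in 3.98% of all 32851 promoters, and 4.60% of 27025 genes have it in at least 1 of their promoters. Among genes that passed and had a RefSeq promoter, 5.30% of the higher and 6.67% of the lower ones have it. The forkhead motif GTAAACA was in 0 of the 13 and 0 of the 11, and occurs in 3.65% of all promoters. The TCF/LEF motif ATCAAAG was in 2 of the 13, H2-Eb1 and Wwtr1, and 0 of the 11 (3.73% of all promoters), and the GATA motif AGATAA in 3 of the 13, Cyp4f18, H2-Eb1 and Foxp3, and 1 of the 11, Samd3 (11.2% of all promoters). The motifs do not overlap each other, and a match describes these letters and is not a binding site. The 250 bases before the start of the 4 genes with the T-box letters are shown. Whether these letters bear on the levels of the genes was not tested. Capitals mark the T-box motif, read as GGTGTGA or TCACACC, and the GATA motif, read as AGATAA or TTATCT. They are chr13:113180966-113181215 on the minus strand for Gzmk, chr1:164935523-164935772 minus for Xcl1, chr10:26229457-26229706 plus for Samd3 and chr8:72009627-72009876 minus for Cyp4f18.
Gzmk: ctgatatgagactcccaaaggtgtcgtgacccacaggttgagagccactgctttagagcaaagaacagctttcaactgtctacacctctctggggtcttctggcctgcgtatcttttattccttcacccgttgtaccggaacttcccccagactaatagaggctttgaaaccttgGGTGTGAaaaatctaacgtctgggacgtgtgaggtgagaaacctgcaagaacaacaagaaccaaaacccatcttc
Xcl1: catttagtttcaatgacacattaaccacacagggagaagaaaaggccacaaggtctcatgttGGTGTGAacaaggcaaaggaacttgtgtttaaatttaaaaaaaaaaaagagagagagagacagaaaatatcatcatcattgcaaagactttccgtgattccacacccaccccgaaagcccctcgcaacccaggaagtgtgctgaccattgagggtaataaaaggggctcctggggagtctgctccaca
Samd3: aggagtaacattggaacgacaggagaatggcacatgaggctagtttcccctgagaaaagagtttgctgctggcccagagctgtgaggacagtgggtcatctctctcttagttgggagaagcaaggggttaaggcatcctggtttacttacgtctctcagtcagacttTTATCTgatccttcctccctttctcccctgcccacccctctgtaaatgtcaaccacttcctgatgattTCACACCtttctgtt
Cyp4f18: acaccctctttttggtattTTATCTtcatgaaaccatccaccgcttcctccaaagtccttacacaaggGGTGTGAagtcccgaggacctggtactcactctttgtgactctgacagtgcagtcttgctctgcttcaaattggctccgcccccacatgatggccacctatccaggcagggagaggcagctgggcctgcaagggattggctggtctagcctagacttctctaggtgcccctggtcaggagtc

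Of 25 Treg core genes, all tested, 13 rose in Treg KO and 0 fell, with a median log2 difference of 2.18 against 0.04 over all genes. The lowest difference of a member was −0.78, and 1 member fell under 9 alternatives of the processing. Sorting separated the cells as Treg and Tconv, so this list is a check of the sort like Foxp3 itself. For this and the other lists, the shares over all genes tested were 4.16% higher and 2.65% lower. In the highest of the 4 groups by mean level 16.1% passed. A list count near these shares does not set that list apart. Tnfrsf18, the TNF family receptor known as GITR, read 11143, 9943, 11674 and 12913 in Treg KO, against 2475, 2052, 3082, 2897 and 2199 in Tconv KO (log2 difference 2.18, SE 0.14, limma adjusted p = 1.98e-08). Tnfrsf4, known as OX40, averaged 17423 ± 3386 in Treg KO and 2399 ± 348 in Tconv KO (2.85). Ikzf2, the transcription factor Helios, averaged 3478 ± 575 in Treg KO and 462 ± 62.4 in Tconv KO (2.90). The groups lay far apart in each, and Capg, an actin-capping protein, differed likewise by 2.57. The others that rose were Il2ra (5.74), the IL-2 receptor alpha chain, Tnfrsf9 (4.83), the cytokine subunit Ebi3 (4.36), the Helios relative Ikzf4 (4.35), the cytokine Il10 (3.95), Lrrc32 (3.25), which holds latent TGF-β, and the inhibitory receptors Ctla4 (1.48) and Tigit (0.99).

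Of the 25 VAT Treg genes, 14 rose and 0 fell, with a median of 1.90. The lowest difference of a member was −0.95, and 1 member fell under 6 alternatives. Il1rl1, the IL-33 receptor ST2 (chromosome 1, 40429570 to 40465415), read 10916, 10742, 12704 and 10798 in Treg KO, against 72.8, 116, 2548, 190 and 116 in Tconv KO. The Treg libraries were close together and above every Tconv library, while Tconv KO 3 read far above the other Tconv (log2 difference 5.69, SE 1.06, limma adjusted p = 0.00168). Klrg1, an inhibitory receptor of differentiated lymphocytes, read 14302, 7921, 15876 and 13074 in Treg KO, against 65.5, 500, 882, 142 and 324 in Tconv KO (5.53). Gata3, the type 2 transcription factor, read 16025, 11267, 18290 and 19432 in Treg KO, against 2031, 1821, 5155, 2117 and 1794 in Tconv KO (2.76). The integrin Itgav averaged 4155 ± 568 in Treg KO and 579 ± 274 in Tconv KO (2.93). The growth factor Areg, known as amphiregulin, averaged 3712 ± 1332 in Treg KO and 244 ± 363 in Tconv KO (4.77), with 892 in Tconv KO 3 and 61.4 to 129 in the other Tconv. Also higher were the chemokine receptors Ccr1, Ccr3 (4.07) and Ccr2 (1.50), Cxcl2, the triglyceride enzymes Dgat2 and Dgat1 (1.90), Cish (1.94), a suppressor of cytokine signalling, Odc1 (1.54), an enzyme of polyamine synthesis, and Id2 (1.45).

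Pparg, the nuclear receptor on which VAT Treg depend, did not pass. It read 455, 270, 494 and 610 in Treg KO, against 36.3, 19.7, 398, 4.99 and 8.11 in Tconv KO. Tconv KO 3 lay within the range of the Treg libraries, and the other Tconv libraries lay below all of them. The log2 difference was 3.98 (SE 1.27, limma adjusted p = 0.0671), and without Tconv KO 3 it was 4.94 at an adjusted p of 0.0126.

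Of 13 Th2 genes tested, 6 rose and 0 fell, with a median of 1.40. They were Il1rl1, Areg, Gata3, the IL-4 receptor chain Il4ra, the chemokine receptor Ccr8 and the signal transducer Stat6. Il4ra averaged 6868 ± 1754 in Treg KO and 2150 ± 985 in Tconv KO (1.76). Ccr8 averaged 2035 ± 748 in Treg KO and 737 ± 608 in Tconv KO (1.71) and lost its call under 5 alternatives, at limma adjusted p up to 0.0859 by voom. Of these 6, Il1rl1, Areg and Gata3 are also on the VAT Treg list. Of its cytokines, Il5 read 177, 167, 110 and 171 in Treg KO, against 46.0, 52.4, 940, 38.5 and 1.00 in Tconv KO, and Il13 was low in all but Tconv KO 3 (24.1). Of 14 genes of IL-1 family receptors and their signalling, 2 rose, Il1rl1 and the kinase-dead inhibitor Irak3 (181 ± 29.7 in Treg KO and 19.1 ± 18.6 in Tconv KO, 4.11), whose exons overlap Tmbim4. Of 7 Th17 genes tested, 0 passed in either direction.

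Of 23 genes of prostaglandin synthesis, breakdown and sensing, the pathway of the deleted enzyme, 16 were tested, of which 1 rose and 0 fell, with a median difference of −0.12. Of all genes tested 4.16% rose, so the count does not set this list apart. The gene that passed was Ptgir, the prostacyclin receptor (chromosome 7, 16906490 to 16910905), at 314, 107, 433 and 671 in Treg KO, against 1.00, 8.01, 223, 8.98 and 49.0 in Tconv KO. The groups overlapped through Tconv KO 3. The log2 difference was 4.11 (SE 1.12, limma adjusted p = 0.028), and the call was lost by voom (0.109) and when Treg KO 1, 3 or 4 or Tconv KO 1, 2 or 4 was left out (up to 0.0988). Ptger4, the prostaglandin E2 receptor EP4, averaged 761 ± 114 in Treg KO and 1156 ± 220 in Tconv KO (−0.59, limma adjusted p = 0.0684). Hpgds, which makes prostaglandin D2, averaged 161 ± 39.0 in Treg KO and 32.9 ± 17.3 in Tconv KO (2.41, limma adjusted p = 0.103). The thromboxane receptor Tbxa2r averaged 73.0 ± 72.6 in Treg KO and 210 ± 89.8 in Tconv KO, and the prostaglandin transporter Slco2a1 20.0 ± 10.8 in Treg KO and 68.4 ± 24.1 in Tconv KO. None of these 4 passed, although Hpgds did under 3 alternatives and Ptger4 under 2.

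Of 17 leukotriene genes 11 were tested, of which 3 rose and 0 fell, with a median of 1.54. Beside Cyp4f18 these were receptors. Ltb4r1, the leukotriene B4 receptor BLT1 (chromosome 14, 55765962 to 55768494), read 6612, 6339, 8054 and 6951 in Treg KO, against 138, 294, 2308, 99.9 and 164 in Tconv KO (log2 difference 4.66, SE 0.82, limma adjusted p = 0.00104). The Treg libraries were close together, and Tconv KO 3 again read above the other Tconv. Cysltr1, a receptor for cysteinyl leukotrienes, read 81.8, 53.2, 120 and 63.3 in Treg KO, against 21.7, 1.00, 2.90, 13.8 and 1.00 in Tconv KO (3.79), and its call was lost with a replicate block (limma adjusted p = 0.0511). The glutathione transferase Mgst3 averaged 171 ± 82.6 in Treg KO and 49.7 ± 28.8 in Tconv KO and did not pass. The prostaglandin and leukotriene lists were not tested against each other.

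Of 41 fatty acid and lipid genes tested, 5 rose and 1 fell, with a median of 0.18. Plin2, a coat protein of lipid droplets, read 6721, 4036, 8663 and 9915 in Treg KO, against 470, 716, 1835, 478 and 264 in Tconv KO (log2 difference 3.53, SE 0.51, limma adjusted p = 0.000157). Dgat2 and Dgat1 also rose, while the lipid droplet gene Plin3 and the lipases Pnpla2 and Lipe did not pass. Srebf2, the regulator of sterol synthesis, averaged 1887 ± 235 in Treg KO and 965 ± 76.3 in Tconv KO (0.96). The fatty acid binding protein Fabp5 averaged 397 ± 153 in Treg KO and 136 ± 48.2 in Tconv KO (1.53), and lost its call without Treg KO 4 (limma adjusted p = 0.0641). Lpin1, a phosphatidic acid phosphatase, fell, at 367 ± 140 in Treg KO and 1275 ± 501 in Tconv KO (−1.76). The count of genes that rose was 3 without Treg KO 4, and the count that fell was 2 without Tconv KO 3.

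Of 29 Th1 and cytotoxic genes, all tested, 20 fell and 0 rose, with a median log2 difference of −3.26. Beside Gzmk, Eomes, Xcl1, Fasl, Ccl4 and Klrk1, they were the T-box factor Tbx21 (−1.99), the transcription factor Runx3 (−0.78), the cytokines Ifng (−2.91) and Tnf (−1.24), the pore-forming protein Prf1 (−3.73), the granule genes Nkg7 (−3.91) and Ctsw (−2.64), the chemokines Ccl3 (−3.41) and Ccl5 (−3.58), the receptors Cxcr3 (−1.62), Klrc1 (−3.26), Klrd1 (−4.39) and Il12rb2 (−4.20), and Ly6c2 (−4.73). Ly6c2, a surface protein of memory and effector T cells, read 37.2, 60.9, 95.9 and 23.4 in Treg KO, against 1314, 1389, 1564, 1107 and 1126 in Tconv KO. Ccl5, known as RANTES, read 6379, 2991, 596 and 3230 in Treg KO, against 17379, 57580, 16661, 41270 and 32357 in Tconv KO. Neither gene overlapped between the groups. The shares over all genes tested were 2.65% lower and 4.16% higher. The highest difference of a member of this list was 1.17, and 1 member rose under 6 alternatives. Members of the Klr, granzyme and Ly6 families have similar copies between which reads may be split. Markers of CD8 T and NK cells were low beside these genes, with Klra4 at no reads in all 9 libraries, and 0 of the 4 tested passed. All 4 were nevertheless lower in Treg KO, by log2 differences from −3.46 to −0.67 with a median of −2.21. The summed level over 7 markers was 16.9 to 140 in Treg KO and 6.22 to 529 in Tconv KO. Tconv KO 5 alone made these ranges overlap, with the other Tconv KO libraries at 238 to 529. The part of these markers in the cytotoxic genes was not tested.

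Of 11 follicular helper genes tested, 6 fell and 1 rose, with a median of −1.08. Pdcd1, the inhibitory receptor PD-1, was the one that rose, at 5034, 9162, 7099 and 8860 in Treg KO, against 1476, 2314, 1476, 2501 and 1112 in Tconv KO (2.11, limma adjusted p = 8.36e-06). Slamf6 averaged 292 ± 257 in Treg KO and 1928 ± 532 in Tconv KO (−3.01), its adaptor Sh2d1a, whose exons overlap Tenm1, 184 ± 43.0 in Treg KO and 983 ± 364 in Tconv KO (−2.36), and the inhibitory receptor Btla 66.5 ± 43.7 in Treg KO and 537 ± 207 in Tconv KO (−3.22). The other members that fell were Cxcr5, the cytokine Il21 (−3.98) and the nuclear factor Tox (−1.08).

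Of 20 genes of resting T cells, 7 fell and 1 rose, with a median of −1.06. Tcf7, which encodes TCF-1, a factor of naive and memory T cells, read 298, 588, 107 and 140 in Treg KO, against 3803, 3296, 3798, 4748 and 3150 in Tconv KO (log2 difference −4.03, SE 0.38, limma adjusted p = 1.43e-06). The lymph node homing receptor Ccr7 averaged 486 ± 173 in Treg KO and 1290 ± 107 in Tconv KO (−1.46), and S1pr1, the receptor that guides exit from tissue, 1269 ± 271 in Treg KO and 2632 ± 668 in Tconv KO (−1.04). The kinase Txk (−2.68), the growth factor binding protein Igfbp4 (−2.73), Lef1 (−1.08), which is related to Tcf7, and Nsg2 (−4.83) also fell. Ly6c1, a close copy of Ly6c2, rose by 3.67 while Ly6c2 fell, and reads of the 2 may be split. The count that rose was 0 by voom or without Treg KO 4, and 2 without Tconv KO 3.

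Components of T cell receptor signalling fell more often than they rose, with 12 of 36 lower, 1 higher and a median of −0.47. The adaptor Lat, which links the receptor to downstream enzymes, read 3322, 2905, 2809 and 3939 in Treg KO, against 6159, 6395, 6253, 5372 and 5279 in Tconv KO (−0.87, SE 0.15). The costimulatory receptor Cd28 read 4148, 2579, 2013 and 4261 in Treg KO, against 7751, 7342, 7624, 7235 and 7375 in Tconv KO (−1.27, SE 0.22). The groups did not overlap in either gene. The kinase Fyn averaged 1504 ± 240 in Treg KO and 3136 ± 494 in Tconv KO (−1.06) and the adaptor Grap2 315 ± 63.1 in Treg KO and 962 ± 159 in Tconv KO (−1.62). Themis and Txk were the members with the lowest differences, and Lck (−0.73), the receptor chain Cd247 (−0.65), Prkcq (−0.89), Nfatc2 (−1.14), the phosphatase Ptpn22 (−1.42) and Dgkz (−0.72) also fell. The phosphatase Ubash3b was the member that rose, at 1901 ± 808 in Treg KO and 294 ± 100 in Tconv KO (2.66).

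Among 16 checkpoint and CD28 family genes 5 rose and 4 fell. Those that rose were Pdcd1, Ctla4, Tigit, the PD-1 ligand Pdcd1lg2 (1.82) and Cd200r1, an inhibitory receptor at 1907 ± 577 in Treg KO and 200 ± 78.2 in Tconv KO (3.30). Those that fell were Cd28, Btla, Cd96 (−1.68) and Cd160 (−4.10). Without Treg KO 3 or Treg KO 4 the count that rose was 3. Of 17 TNF receptors 5 rose and 1 fell. Tnfrsf9, known as 4-1BB, read 2266, 3628, 2221 and 4614 in Treg KO, against 120, 142, 16.1, 174 and 264 in Tconv KO (4.83), the death receptor Tnfrsf10b averaged 1190 ± 238 in Treg KO and 219 ± 79.2 in Tconv KO (2.51), and the TL1A receptor Tnfrsf25 1135 ± 86.2 in Treg KO and 426 ± 127 in Tconv KO (1.46). The member that fell was the TNF receptor Tnfrsf1a (−3.45). Here Tconv KO 3 was the lowest Tconv library for Tnfrsf9, unlike its high values of Il1rl1 and Areg.

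**Figure D2:**
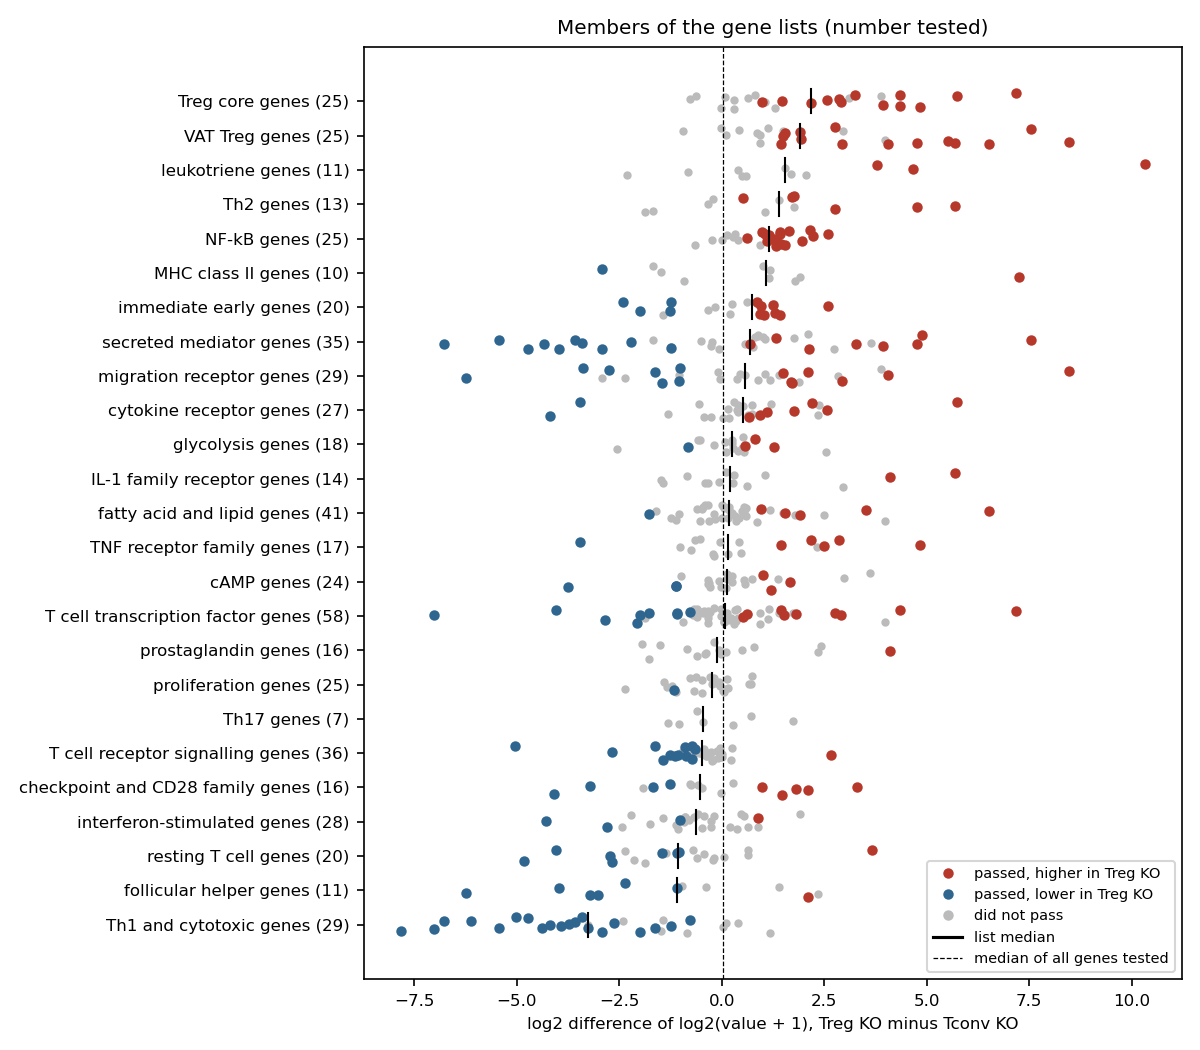
Log2 difference between Treg KO and Tconv KO of each tested member of the pathway lists, with 1 point per gene, the median of each list (bar), the median of all genes tested (dashed line) and coloured points for genes that passed in limma. Th1 and cytotoxic genes lie lowest, with a median of −3.26, and Treg core genes highest, with 2.18.

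Of 27 cytokine receptor genes 7 rose and 2 fell, with a median of 0.52. Il2ra read 5115, 3487, 6537 and 4473 in Treg KO, against 18.0, 68.0, 1299, 47.3 and 69.4 in Tconv KO (5.74, limma adjusted p = 0.000493). The receptor for IL-10, Il10ra, averaged 7630 ± 1729 in Treg KO and 1646 ± 342 in Tconv KO (2.22), the IL-9 receptor Il9r 471 ± 136 in Treg KO and 86.2 ± 48.4 in Tconv KO (2.58), and the common gamma chain Il2rg 15720 ± 2503 in Treg KO and 7354 ± 1545 in Tconv KO (1.11). Il4ra, Il21r (0.93) and Ifngr1 (0.68) also rose, and Il12rb2 and Tgfbr3 (−3.46) fell. The count that fell was 1 under 10 alternatives, among them leaving out Treg KO 1, 3 or 4 or Tconv KO 1, 2, 4 or 5, and 11 rose with quality weights. Receptors of migration moved in both directions, 7 up and 7 down of 29. Itgb7, an integrin chain of gut homing, averaged 13452 ± 1751 in Treg KO and 4274 ± 1194 in Tconv KO (1.69), and rose with Ccr1, Ccr2, Ccr3, Ccr8, Itgav and the atypical receptor Ccrl2 (2.11). Gpr183, the receptor for oxysterols that steers cells within lymphoid tissue, read 283, 425, 457 and 405 in Treg KO, against 2316, 2517, 2002, 4011 and 2600 in Tconv KO (−2.75, limma adjusted p = 3.97e-07), and members that fell with it include Ccr7, Cxcr3, Cxcr5, S1pr1 and Itga4 (−1.02).

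Secreted mediators also split by population, with 8 higher and 10 lower of 35. Il10, the anti-inflammatory cytokine, read 8472, 3836, 17184 and 14178 in Treg KO, against 711, 632, 464, 727 and 561 in Tconv KO (3.95, SE 0.51, limma adjusted p = 4.49e-05). It varied widely within Treg, yet its lowest Treg value lay above every Tconv value. Fgl2, a secreted effector of Treg, averaged 5665 ± 1156 in Treg KO and 739 ± 641 in Tconv KO (3.27). Areg, Cxcl2, Cxcl3 (4.88), Csf1 (2.13), Metrnl (1.33) and Ltb (0.69) also rose. The mediators that fell were Il2 (−4.34), Il21, Ifng, Tnf, Tnfsf11 (−2.20), Ccl3, Ccl4, Ccl5, Xcl1 and Spp1 (−4.71). By voom 6 mediators fell. Of 58 transcription factors of T cells 9 rose and 9 fell. Beside those named, Irf8 (1.53), the retinoic acid receptor Rara (1.82) and the glucocorticoid receptor Nr3c1 (0.61) rose, and Ikzf1 (−1.76), Klf3 (−2.07) and Myb (−2.85) fell. Ikzf1, known as Ikaros, averaged 790 ± 127 in Treg KO and 2675 ± 388 in Tconv KO, while its relatives Ikzf2 and Ikzf4 rose. The counts of transcription factors depended on single libraries, with 5 higher without Treg KO 1, Treg KO 4 or Tconv KO 5, and 5 lower without Tconv KO 1, 2 or 4.

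Of 25 NF-kB genes, all tested, 17 rose and 0 fell, with a median log2 difference of 1.17, and 13 to 17 rose under the alternatives. Those that did not pass include the kinases Ikbkb (0.00) and Chuk (−0.23) and the adaptors Traf2 (0.29) and Tnip2 (−0.64). The subunits Nfkb1 (1.54), Nfkb2 (1.24), Rel (1.39), Rela (0.98) and Relb (1.41) were all among those that rose. Rel read 3452, 2940, 3142 and 3570 in Treg KO, against 1333, 992, 1609, 1166 and 1229 in Tconv KO, with no overlap. So were inhibitors of the pathway. Nfkbia, which holds NF-kB in the cytoplasm, read 62270, 37109, 78852 and 61089 in Treg KO, against 8559, 7593, 26248, 8567 and 5480 in Tconv KO (2.59), where Tconv KO 3 was the highest Tconv library. Nfkbiz averaged 8979 ± 1483 in Treg KO and 2483 ± 1290 in Tconv KO (1.96), and Nfkbib, Nfkbid, Nfkbie and Tnfaip3 rose by 1.11, 1.06, 2.14 and 0.63 on the log2 scale. The adhesion molecule Icam1, a target gene, averaged 4998 ± 1057 in Treg KO and 1825 ± 151 in Tconv KO (1.43). The remaining members that rose were Tnip1, Traf1, Bcl3, Birc3 and Map3k14.

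Immediate early genes moved both ways, with 8 higher and 4 lower of 20. Dusp1, a phosphatase of MAP kinases whose exons overlap Ergic1, averaged 38934 ± 6566 in Treg KO and 14489 ± 2323 in Tconv KO (1.43), and the orphan receptor Nr4a1 22407 ± 8393 in Treg KO and 9086 ± 3581 in Tconv KO (1.30). Its relative Dusp2 averaged 1531 ± 276 in Treg KO and 6393 ± 2538 in Tconv KO (−2.00), and Egr1 1103 ± 500 in Treg KO and 2522 ± 583 in Tconv KO (−1.26), with Egr2 (−2.41) and Nr4a2 (−1.23) also lower. Fosl2, Jun, Junb, Jund, Nr4a3 and Atf3 (2.61) completed the higher ones. The count depended on the processing. It was 2 higher without Treg KO 3, where Nr4a1 (limma adjusted p = 0.0685) and Junb (0.0507) were lost, and 4 under quantile scaling or without Treg KO 4. The count that fell was 2 when Treg KO 1, Treg KO 3 or Tconv KO 2, 4 or 5 was left out.

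Among 24 genes of cAMP signalling, through which the prostaglandin E2 receptors EP2 and EP4 act, 3 rose and 3 fell with a median of 0.13. The list covers cAMP signalling at large, with other receptors that feed into it, and is not particular to prostaglandins. The cAMP-responsive repressor gene Crem averaged 9184 ± 2489 in Treg KO and 2945 ± 879 in Tconv KO (1.66), and the kinase Sik1 3308 ± 474 in Treg KO and 1640 ± 297 in Tconv KO (1.02). Phosphodiesterases, which break down cAMP, differed by isoform. Pde7a read 116, 132, 90.2 and 105 in Treg KO, against 1310, 1439, 1761, 1068 and 1990 in Tconv KO (−3.74, SE 0.44, limma adjusted p = 1.92e-05), with no overlap. Pde4b averaged 563 ± 112 in Treg KO and 1230 ± 293 in Tconv KO (−1.12), Pde4d fell by 1.12 on the log2 scale, and Pde2a averaged 1743 ± 570 in Treg KO and 763 ± 260 in Tconv KO (1.20). The calls of Pde4b and Pde2a were lost under 3 and 4 alternatives, at limma adjusted p up to 0.0885 and 0.0872.

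Of 28 interferon-stimulated genes tested, 3 fell (Oas3, Ifit3 and Irf7) and 1 rose (Gbp7), with a median of −0.62. Since 4.16% of all genes tested rose, the count that rose does not set this list apart. The antiviral gene Oas3 averaged 54.2 ± 50.4 in Treg KO and 257 ± 96.4 in Tconv KO (−2.79), and the guanylate-binding protein Gbp7 1500.1 ± 227 in Treg KO and 809 ± 97.1 in Tconv KO (0.89). The 3 genes that fell each lost their call under 3 alternatives, and 1 fell without Treg KO 1 or Treg KO 3. Of 18 glycolysis genes 3 rose and 1 fell. The glucose transporter Slc2a3 averaged 1279 ± 268 in Treg KO and 524 ± 40.4 in Tconv KO (1.27), and the enzymes Aldoa (0.82) and Pkm (0.56) rose while Pfkp fell (−0.82), with Pkm lost under 6 alternatives and Pfkp under 3 (by voom and without Treg KO 3 or Treg KO 4). Without Treg KO 2 the count that fell was 2. Of 25 proliferation genes 1 fell, the replication factor Mcm4 (350 ± 78.4 in Treg KO and 779 ± 124 in Tconv KO, −1.16), and 0 rose. Since 2.65% of all genes tested fell, 1 of 25 does not set this list apart. Without Tconv KO 3 the count that fell was 3, with Top2a (limma adjusted p = 0.0199) and Ccna2 (0.045) added, and it was 2 without Treg KO 4 or with quality weights. Among 10 MHC class II genes, H2-Eb1 rose and H2-Ob, an inhibitor of peptide loading, fell (12.7 ± 11.4 in Treg KO and 73.7 ± 33.1 in Tconv KO, −2.92), a call lost under 6 alternatives. The invariant chain Cd74 averaged 1199.8 ± 585 in Treg KO and 322 ± 161 in Tconv KO, and H2-Ab1 213 ± 55.5 in Treg KO and 71.9 ± 45.4 in Tconv KO, and neither passed. Under alternatives Cd74 passed in 5, at limma adjusted p from 0.00672 by voom, and H2-Ab1 in 1, which gave 2 or 3 members that rose. The count that fell was 0 with a replicate block or without Treg KO 3 or Tconv KO 3, 4 or 5.

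Markers of other cell types were summed over the listed genes of each type. By these sums, macrophage markers stood at 34.0 to 313 in Treg KO and 57.2 to 230 in Tconv KO, dendritic cell markers at 181 to 321 in Treg KO and 64.9 to 299 in Tconv KO, and B cell markers at 39.6 to 164 in Treg KO and 76.2 to 149 in Tconv KO. These ranges overlapped, but those of the dendritic cell markers did so through Tconv KO 3 alone. The other Tconv KO libraries stood at 64.9 to 150 for them, below every Treg KO library. The part of these markers in the difference of H2-Eb1 was not tested. The 1 macrophage marker that passed of 5 tested was Cd68, which fell (8.92 ± 9.39 in Treg KO and 80.1 ± 63.8 in Tconv KO, −3.48), and lost its call under 6 alternatives. Neutrophil and mast cell markers stood at 564 to 2958 in Treg KO and 347 to 944 in Tconv KO, with 0 of 6 called, and most of that sum was Mmp9 (1509 ± 1018 in Treg KO and 541 ± 263 in Tconv KO). Adipocyte markers summed to 97.3 to 346 in Treg KO and 72.5 to 206 in Tconv KO, with the adipocyte gene Cfd unread in all 9. Stromal and endothelial markers summed to 212 to 559 in Treg KO and 456 to 1201 in Tconv KO, and of 6 tested Pecam1 alone passed (−1.39), with 4 alternatives in which it was lost. Red cell and platelet markers stood at 46.7 to 1363 in Treg KO and 63.0 to 207 in Tconv KO, the highest sum being that of Treg KO 1.

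Markers of type 2 innate lymphoid cells, which share much of their programme with VAT Treg, had the highest sums of these lists. Of 9 tested 4 rose, Il1rl1, Areg, Gata3 and Il9r, of which 3 are also on the VAT Treg list. Their summed level was 32534 to 47527 in Treg KO and 5726 to 17453 in Tconv KO, where the highest was Tconv KO 3 and the next 6593. Their part in the VAT Treg and Th2 counts was not tested.

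Tconv KO 3 carried higher levels of many genes of the Treg side than the other Tconv. Of the 571 higher genes with a single highest Tconv library, it was that library in 226 (39.6%), against 11.7% to 17.9% for each other Tconv KO library. The share over all genes tested was not taken, so this count does not set the higher genes apart from other genes. In 14 of the higher genes it read more than 5 times the next Tconv library. Among those 14 were Il1rl1, Il2ra, Areg, Ltb4r1, Cxcl2, Cxcl3, the stress-induced factor Atf3 (3982 against at most 598 in the other Tconv) and Ctsh (169 against at most 20.5), a lysosomal protease. Other Treg genes were near the floor in it, with Foxp3 at 1.89, Ccr1 at 2.65 and Slco2b1 at 1.00. Il5, the eosinophil cytokine, was higher in it (940) than in any Treg KO library (110 to 177), and the innate lymphoid markers above stood out in it as well. Without this library 984 genes passed, 610 higher and 374 lower, and with its reads thinned to the median of the other 15 libraries 975 passed. What sets it apart was not tested.

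**Figure D3:**
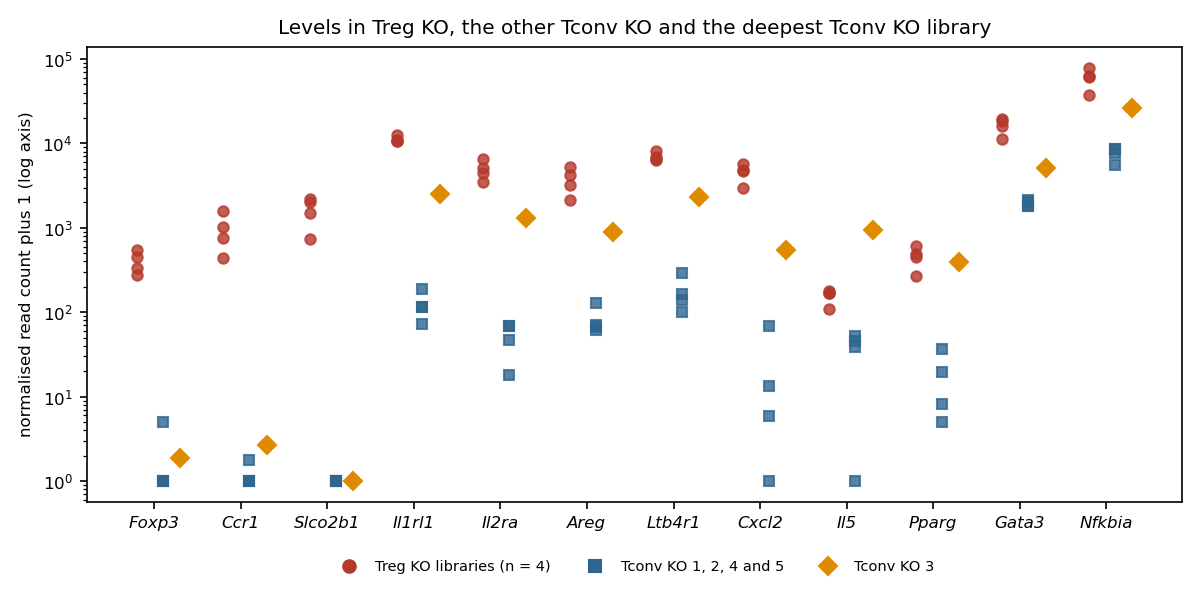
Deposited values, on a log axis, of 12 genes, with Treg KO libraries as circles, Tconv KO 1, 2, 4 and 5 as squares and Tconv KO 3 as a diamond. Tconv KO 3 lies between the groups for Il1rl1 (2548), within the Treg range for Pparg (398) and with the other Tconv for Foxp3 (1.89).

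Whether these differences are those of WT mice was read from Treg WT against Tconv WT, a comparison that shares no library with the KO one, although both use the same estimate of the spread. In WT mice 599 genes passed (4.18%), and 339 without the library labelled Treg WT 3, 288 by voom and 161 with only the groups compared in the fit. The comparisons with KO in the rest of this paragraph include the library labelled Treg WT 3 and were not repeated without it. The same holds for the WT differences of single genes below. Of the 599, 411 also passed in KO mice, all in the same direction, which is 42.2% of the genes that passed in KO and 68.6% of those that passed in WT. Of the 975 KO genes, 939 (96.3%) had the same sign in WT, as did 64.4% of all genes tested. In 562 (57.6%) the WT groups did not overlap and differed in the KO direction, against 10.3% of all genes tested. The log2 differences of KO and WT had a Pearson r of 0.53 over the genes tested, which are not independent replicates. The median WT difference was 1.39 over the genes that rose in KO and −1.22 over those that fell. These genes were chosen by their KO difference, which favours larger values in KO. Over the genes that passed as higher in WT, the medians were 2.13 in WT and 2.00 in KO. Over those that passed as lower in WT, they were −2.50 in WT and −1.54 in KO.

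Most of the leading genes named above also passed in WT mice. Cyp4f18, Slco2b1, Ccr1, Ky and Foxp3 differed by 11.05, 8.09, 6.62, 6.83 and 5.64 in WT, each past the threshold. Gzmk, Eomes, Xcl1, Themis and Cxcr5 did so by −6.94, −6.73, −7.61, −7.07 and −7.26. Some large KO differences did not pass in WT. Cxcl2 differed by 5.25 in WT (limma adjusted p = 0.0735), Jcad by 4.30 (0.0856), Wwtr1 by 4.20 (0.0787), Ltb4r1 by 3.27 (0.0532) and Ccl4 by −2.68 (0.323). Passing in KO and not in WT does not show that they differ between genotypes.

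The difference itself was tested, and in limma 0 of 14319 genes (0.0%) passed. Without adjustment, 748 had a p under 0.05, the smallest adjusted p was 0.293, and voom also called 0, with 846 under 0.05 unadjusted. The count was 2 without Treg KO 2, 1 without Tconv KO 3 or Treg WT 1, and 0 without the library labelled Treg WT 3. The genes with the smallest p are given without a claim. For Fxyd6, a regulator of ion transport, the log2 difference was 5.09 in KO and −0.15 in WT. It read 87.8, 24.0, 86.0 and 167 in Treg KO, against 2.39 in Tconv KO 3 and 1.00 in the other Tconv KO libraries. For Nphp4, a cilium protein, it was 1.90 in KO and −4.26 in WT, and for the spindle protein Tacc3 it was 0.20 in KO and −5.43 in WT. In the other direction, Rimkla, a ligase of N-acetylaspartate, differed by −2.29 in KO and 5.68 in WT, the cilium protein Invs by −1.59 in KO and 1.19 in WT, and Plekhn1 by −1.11 in KO and 1.23 in WT. Exons of Tacc3, Rimkla and Invs overlap those of Tmem129, Zmynd12 and Tex10.

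Of the 975 KO genes, 36 had the opposite sign in WT. Beside Fxyd6 the ones with the smallest p were Smarcd3, a subunit of the SWI/SNF chromatin remodeller, Lgals9, the lectin galectin-9, the arginyl tRNA synthetase Rars and the synaptotagmin Syt17. Smarcd3 read 105, 231, 264 and 161 in Treg KO, against 1.00, 1.00, 1.38, 15.4 and 1.00 in Tconv KO (5.84 in KO and −1.22 in WT). Its exons overlap Chpf2. Lgals9 averaged 1944 ± 298 in Treg KO and 893 ± 227 in Tconv KO (1.15 in KO and −0.07 in WT), Rars 199 ± 54.7 in Treg KO and 492 ± 101 in Tconv KO (−1.32 in KO and 0.01 in WT), and Syt17 20.8 ± 12.7 in Treg KO and 2.53 ± 1.09 in Tconv KO (2.53 in KO and −0.38 in WT). None of them passed in WT or for the difference between KO and WT.

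**Figure D4:**
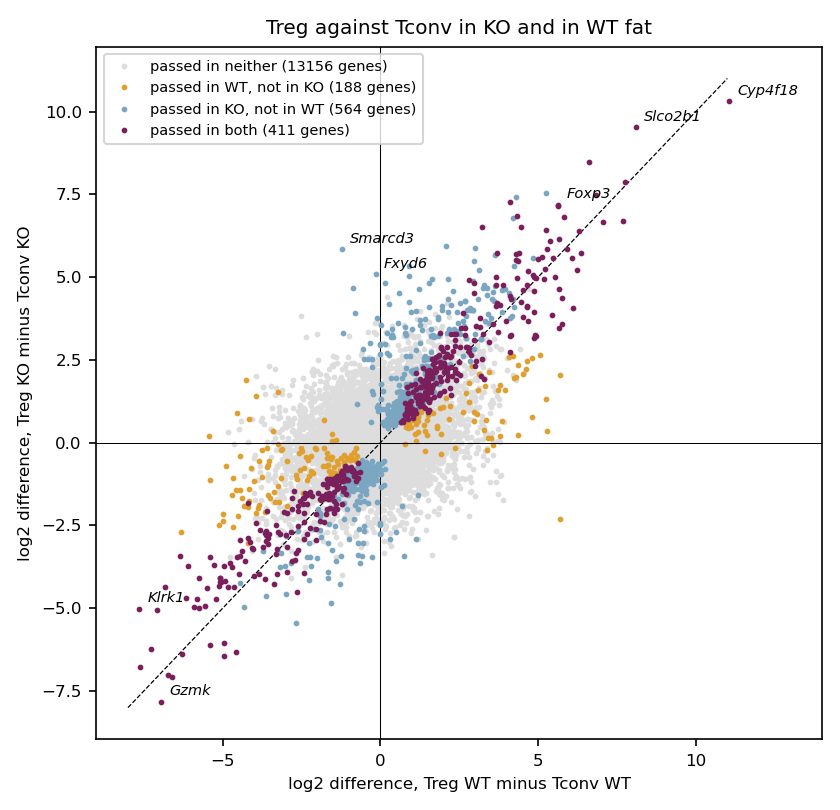
Log2 difference of Treg and Tconv in KO mice (vertical axis) and in WT mice (horizontal axis), with 1 point per gene tested and colours for genes that passed in both comparisons, in one or in neither, and a dashed line of equal differences. All 411 genes that passed in both lie in the quadrants of equal sign.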

How the data were processed

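RNA of sorted VAT Treg and Tconv was sequenced on an Illumina NextSeq from libraries made with SMART-seq2 from 10 ng of RNA, per the labels' protocols. SMART-seq2 reads full-length transcripts and does not mark the strand. The deposited signal is a read count per gene, scaled by a library size factor and raised by 1. The steps between its low values show this, since 100% of the values under 1000 reads were whole reads within 0.1 of a read. Tools named in the submitters' processing notes, in no order, are kallisto 0.44, DESeq2 without a version, Partek 6.6, CASAVA 1.8 and R 3.3.1, with build mm10, and the protocols name bcl2fastq2 2.20. The sources used here do not give the annotation behind the counts.

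The scale was log2(value + 1), on which fold changes of low genes are understated. Using limma 3.58.1 (R 4.3.3), a model of the 4 groups with a mean-variance trend was fitted to all 16 libraries and gave 2-sided p-values, adjusted by Benjamini-Hochberg over 14319 genes per comparison. All groups, being small, were given a common estimate of the spread. Every adjusted p in the text is from limma, and a gene passed under 0.05. Hpgd, below the filter, and Foxp3 were compared by an exact permutation test. On simulated data with 14331 genes for Treg KO against Tconv KO, 83% of genes changed 4-fold and 97% of genes changed 16-fold were recovered. Of its calls, 6 were unchanged genes (3.23%). The changed genes, 100 at each fold, were drawn only from those with a mean of at least 50, so these shares do not cover lower genes. Libraries were drawn independently, with none set apart as Tconv KO 3 is and no shared animals, so the shares may not hold for the real libraries. Floors of 3 reads cover counting error only, as these reads carry no molecular identifiers and are not independent molecules.

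The members and the 34 gene lists (596 genes) were chosen with earlier results of these data known. Lists share members. The rule for naming genes took Hpgd and Foxp3, the 15 highest and 15 lowest log2 differences among genes that passed, did not overlap and had a higher mean of at least 50, and, by p, up to 5 members per pathway list. It also took, by mean level, up to 3 members per marker list, the 3 smallest p in each direction for the difference between KO and WT, and up to 5 genes of opposite sign in WT. Other members were named after their values were seen, as were Cd3e, Cd4, Il5, Il13 and Pparg, Atf3 and Ctsh. Identifiers without a gene name and antigen receptor segments were not named. Positions are from GENCODE M21 on mm10, where 19233 symbols (98.4%) were found. Of 168 genes looked up, 55 have an exon overlapping that of a further gene, which is protein coding for 25 of them. A few genes of the lists are not reported here, and they still count in the totals.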

Additional observations from a re-analysis of the deposited data

Results flagged for a closer look

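Of 272 sets of values of named genes in a group, 26 held a library far from the others of its group (Dixon's test on the log2 scale at 95%). Chance flags about 1 in 20 sets. Each value is given with the range of the other libraries of that group. What sets these libraries apart was not tested.

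Tconv KO 3 was such a library in 10 sets. It was above the other Tconv KO for Gata3 at 5155 (1794 to 2117), Itgav at 1065 (399 to 495), Areg at 892 (61.4 to 129) and Il1rl1 at 2548 (72.8 to 190.1). It was also above them for Il18rap, a chain of the IL-18 receptor, at 1600.3 (867 to 1000.5), Nfkbia at 26248 (5479.8 to 8567) and the nuclear receptor Rora at 7388 (3696 to 4162). It was below them for Tnfrsf9 at 16.1 (120.2 to 264), the decoy receptor Il1r2 at 1.00 (69.6 to 193) and Top2a, a gene of dividing cells, at 71.3 (243 to 338). Of the other Tconv KO libraries, Tconv KO 4 was low for Mgst3 at 4.19 (39.2 to 73.0) and Srebf2 at 835 (961 to 1015), and Tconv KO 5 for Il10ra at 1071 (1665 to 1966).

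Among Treg KO libraries, Treg KO 3 was high for Il1rl1 at 12704 (10742 to 10916), Cd200r1 at 2772 (1578 to 1656) and Irak3 at 225 (160.1 to 169), and low for Itgav at 3305 (4390.1 to 4496), Tnfrsf10b at 838 (1258 to 1358) and Il5 at 110.0 (167 to 177). Treg KO 2 was high for Ccr7 at 745 (390.2 to 417) and low for H2-Eb1 at 473 (1733 to 2021), Icam1 at 3430.2 (5346 to 5732), Sik1 at 2602 (3467 to 3613) and the chemokine receptor Xcr1 at 44.0 (69.0 to 74.5). Treg KO 4 was low for the IL-6 receptor Il6ra at 22.4 (196 to 265), and Treg KO 1 for the CD8 chain Cd8b1 at 4.62 (90.1 to 126).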

How the results depend on the processing

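Of the 111 genes that passed and were taken by the naming rule, 93 passed under every alternative run, and none changed direction. That rule favours small p and large differences, and the other genes named as risen or fallen are not in this count. Of all 975 genes that passed, 624 also passed without Treg KO 3. Genes passing numbered 652 (without Treg KO 3) to 1443 (quality weights), against 975. Those higher numbered 411 to 847, and those lower 596 with quality weights. Leaving out single libraries gave 241 (without Treg KO 3) to 381 lower genes. Quantile scaling gave 537 higher and 463 lower, and voom, run with the authors' size factors, 727 and 300. The difference between KO and WT gave 0 to 2 genes when single libraries were left out, 2 without Treg KO 2. Genes passing in WT numbered 288 by voom and 161 with only the groups compared in the fit, and 339 (without the library labelled Treg WT 3) to 664 when single libraries were left out. The causes were not tested.

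Same-numbered Treg and Tconv libraries deviated together at r = 0.0359 to 0.0992 in KO and 0.0436 to 0.0916 in WT. None was over 0.1, and the main fit did not pair libraries by number, but a small r cannot decide whether they are paired. Every Treg library correlated best with its own number, narrowly for Treg WT 1 (0.0436 against 0.0433 for the next) and Treg WT 2 (0.0490 against 0.0462). The 5 deleted and 4 WT animals also equal the numbers of Tconv KO and Tconv WT libraries. These are hints only, and whether same-numbered libraries share an animal was not tested. With a replicate block 841 genes passed, 527 higher and 314 lower, against 975 in the main fit. Of these 841 genes, 761 also passed in the main fit, and Foxp3 differed by 7.08 with the block. The planned edgeR and DESeq2 fits were not run, because the deposited values are scaled and offset. Depth limits low genes: at 4.77 M to 8.74 M reads, 3 reads in a Treg KO library are worth 3.92 to 5.61.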
